A study of Mus musculus with 70 samples.

Results

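The integrated stress response was followed here through 31 genes, chosen by symbol from the deposited expression table, in which they are 31 of 21859 genes. The set holds Atf4, the other regulators of the response, and genes known as ATF4 targets. It was chosen by gene name, with earlier results of these data known. All 31 symbols were found, on 32 rows of the table. The second row of Ddit3 was listed at 0 in every library and was not used.

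In the integrated stress response, kinases that sense misfolded protein in the endoplasmic reticulum, amino acid shortage, haem shortage or double-stranded RNA phosphorylate the translation factor eIF2α. General translation then slows, while the messenger RNA of the transcription factor ATF4 is translated more, and ATF4 switches on genes for amino acid synthesis and uptake, for its partner factors, and for the brakes that end the response. Because ATF4 is controlled mainly at translation, the level of Atf4 messenger RNA is not the amount of ATF4 protein, which was not measured here.

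The libraries come from C57BL/6 mice in which doxycycline switches on a constitutively active kinase, either caMEK1, which acts on the ERK pathway, or caMKK6, which acts on the p38 pathway. Mouse embryonic fibroblasts (MEFs) of either genotype were grown for 2, 4 or 7 days with 2 µg/mL doxycycline, or for 2 days without it, giving 8 groups of 3 libraries. The medium of all of them held nonessential amino acids. Liver and colon cells came from male chimeric mice that were control, caMEK1 or caMKK6, given drinking water with doxycycline or without it. All tissue libraries on doxycycline were labelled day 7, and those without it carried no day. Cells were sorted by colour. mCherry marks cells in which the active kinase is expressed (in control mice, mCherry without an active kinase), and GFP marks the cells around them. Each tissue has 3 groups for each genotype: GFP cells without doxycycline, and mCherry and GFP cells of the same animals on doxycycline, with 2 or 3 animals a group. Doxycycline in the drinking water was at 2 mg/mL, except for caMEK1 mice, which had 0.2 mg/mL, so the effects of kinase and dose cannot be told apart in the tissues. The age of the mice and the promoter that drives the transgene are not given in the sources used here.

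Depth, read back from the deposited values, lay between 10888915 and 17763531 reads in the MEF libraries, between 9267318 and 14534256 in those of liver and between 6671204 and 17396973 in those of colon. The transgenes followed the labels in MEFs, with frog MEK1 at 460 to 1169 FPKM in caMEK1 cells on doxycycline and human MKK6 at 129.7 to 1209 FPKM in caMKK6 cells. In liver, caMEK1 mCherry libraries listed frog MEK1 at only 5.55 to 14.1 FPKM and mCherry at only 4.24 to 12.2 FPKM, and GFP cells of control mice on doxycycline listed mCherry at 678 to 749.6 FPKM. These caMEK1 and control liver libraries go against their labels in that respect. Other libraries stand apart as well. Of the caMKK6 MEF libraries, 5 also listed frog MEK1 above 5 FPKM (without doxycycline replicates 2 and 3, day 2 replicates 2 and 3, and day 4 replicate 2). Control colon animal 8 differed from control animal 13 in both colours, as did caMKK6 liver animal 5 from animal 12, and caMEK1 liver animal 17 had the lowest Psat1 and Asns of its group. The transgene levels touch whole groups of the liver, so those results cannot be given without them. In colon, caMKK6 GFP replicate 1 listed human MKK6 at 116 and mCherry at 87.5 FPKM, against 8.50 to 10.6 and 9.61 to 11.6 in the other 2. Colon caMKK6 mCherry replicate 1 listed the GFP transgene at 179 FPKM, against 3.36 and 15.1 in replicates 2 and 3. Control colon mCherry cells listed it at 42.6 FPKM in animal 8 and 114 in animal 13. Where a count of members moved by over 1.5 times without libraries that stand apart, both values are given, and so is the loss of a member's call printed below. The markers of the labelled cells were present, with 6 of 6 fibroblast markers in MEFs, 6 of 6 hepatocyte markers in liver and 6 of 6 colon epithelial markers in colon.

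ATF4 with a C/EBP partner is known to bind a composite element, and promoters from RefSeq on GRCm38.p6 (250 bases before to 50 after the start of each gene) were searched for it, in the form TGATGNAA, on both strands. An entry was found for 26 of the 31 members, and 8 of them (30.8%) held the motif, against 4.51% of the 27025 symbols in the table. The other 7 beside Atf3 were Nupr1, Trib3, Asns, Pycr1, Slc1a4, Chac1 and Vldlr. The sequences below, 5′ to 3′ along the gene, show the match in capitals with up to 40 bases on each side, for 4 members that the expression results return to. In Atf3 (chr1:191183396-191183483, minus strand) and Chac1 (chr2:119351009-119351096, plus strand) the motif lies on the strand opposite to the gene. In Asns (chr6:7693210-7693272, minus strand) and Pycr1 (chr11:120643804-120643891, minus strand) it lies on the strand of the gene.
Atf3: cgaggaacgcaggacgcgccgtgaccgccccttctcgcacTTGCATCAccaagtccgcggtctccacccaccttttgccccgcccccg
Chac1: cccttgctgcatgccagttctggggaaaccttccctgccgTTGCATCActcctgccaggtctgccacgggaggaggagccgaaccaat
Asns: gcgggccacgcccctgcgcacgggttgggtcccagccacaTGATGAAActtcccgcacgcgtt
Pycr1: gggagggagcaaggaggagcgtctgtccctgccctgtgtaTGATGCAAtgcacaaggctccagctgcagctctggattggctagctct
A match is a description of these letters and not a measured binding site.

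Levels without doxycycline were compared first, in FPKM, which is scaled by gene length and so allows levels of different genes to be set side by side. The sources were 6 MEF libraries and, as GFP cells, 9 liver and 9 colon libraries. Untreated MEFs had the highest median of the 3 for 15 members, liver for 5 and colon for 11. At a median of 1 FPKM or more were 29 members in MEFs, 28 in colon and 16 in liver, where the serine and one-carbon genes other than Shmt2 were under 1 FPKM. Atf4 (ENSMUSG00000042406.8, chromosome 15, 80255184 to 80257541 on GRCm38) lay at 85.9 to 99.0 FPKM in MEFs, while liver libraries gave 22.6 to 36.2 and colon libraries 57.8 to 105. Phgdh, the first enzyme of serine synthesis, ranged over 67.8 to 97.5 FPKM in MEFs and 3.18 to 6.17 in colon, and was listed at 0 in all 9 liver libraries. Asns, which makes asparagine, lay at 34.7 to 43.6 FPKM in MEFs, while liver libraries gave 0.377 to 1.86 and colon libraries 12.3 to 23.8. Every MEF library lay above every tissue library for 11 members, Phgdh and Asns among them. The share of all genes with these orders and levels was not taken, so the counts describe the members only. Of all genes tested between untreated liver and colon, 77% were lower in liver.

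Colon and liver differed in other members. Atf3, an early stress-induced factor, had a median of 240.3 FPKM in untreated colon cells (73.4 to 356), against 0.855 in liver (0.242 to 8.55) and 2.26 in MEFs (1.61 to 3.25). Liver was highest for Cth, which makes cysteine from cystathionine (median 164 FPKM, against 28.3 in colon and 2.91 in MEFs), and for Gpt2, a mitochondrial alanine transaminase (median 73.4, against 9.09 and 2.73). Of the 30 members tested between untreated liver and colon, all 30 were called, 8 higher in liver and 22 lower, against 17.1% of all genes up and 77% down. A count that close to the background says little about these genes as a set. The median log2 difference was -1.98 for the members and -0.95 for all genes tested. Scaling to a common median, which removes that shift, gave 10 higher and 19 lower. The liver and colon levels and differences printed here were not rescaled for it. The log2 difference, liver minus colon, was -6.33 ± 0.36 (SE, adjusted p = 1.5e-11) for Atf3, -5.71 ± 0.11 (SE, adjusted p = 7.4e-18) for the small chromatin-binding protein Nupr1, and 4.15 ± 0.10 (SE, adjusted p = 7.6e-17) for Atf5, an ATF4 relative that was the member highest in liver over colon.

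**Figure D1:**
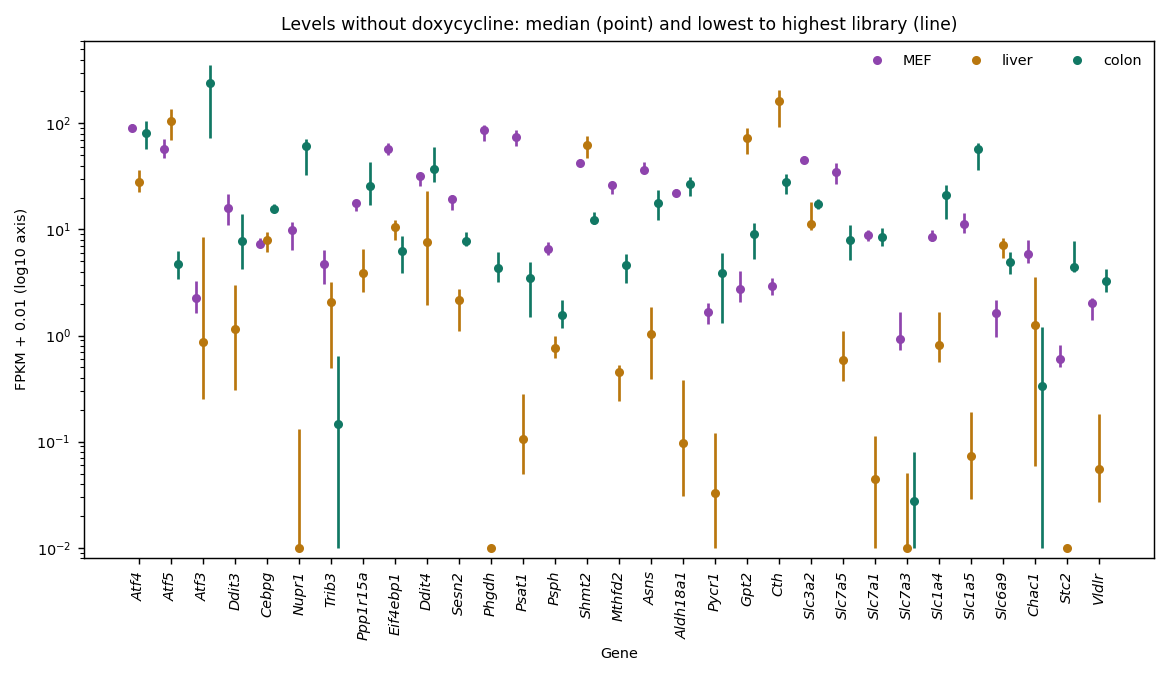
Level of each member in untreated MEF (6 libraries), liver (9) and colon (9) samples, in FPKM on a log scale. A point marks the median and a line runs from the lowest to the highest library. The MEF points and lines lie above the others for Phgdh, Psat1 and Asns, those of liver for Cth and Gpt2, and those of colon for Atf3 and Nupr1.

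In caMEK1 MEFs the regulators fell at day 2 and most then rose above the untreated level, while genes of serine synthesis and amino acid uptake were low at day 7. At day 2 there were 2 members up and 19 down among 31, against 19.5% of all genes up and 19.8% down. At day 4 there were 8 up and 12 down (28.5% of all genes up and 29.3% down), and at day 7 10 up and 11 down (33.4% of all genes up and 28.7% down). By day 7 the members were called about as often as genes in general. The median log2 difference at day 7 was -0.08 for the members and 0.03 for all genes tested. The 3 days share the untreated day 2 libraries as comparator, so the effects of doxycycline and of days in culture cannot be told apart at days 4 and 7, and the counts of the 3 days are not independent.

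Among the 7 regulators, 6 fell at day 2, while at day 7 4 rose and none fell. Ddit3, which encodes the stress factor CHOP, measured 11.1, 11.3 and 15.9 FPKM without doxycycline, 7.78, 8.11 and 10.2 at day 2, 18.6, 24.1 and 25.3 at day 4 and 25.8, 24.3 and 34.3 at day 7. The day 7 log2 difference was 1.08 ± 0.15 (SE, adjusted p = 3.1e-06). The day 2 fall was lost without untreated replicate 3 (adjusted p = 0.09) or day 2 replicate 1 (0.055). All day 2 libraries lay below the untreated ones and all day 4 and day 7 libraries above them. Trib3, a pseudokinase induced by ATF4 and CHOP that restrains both, measured 3.18, 4.00 and 3.06 FPKM without doxycycline, 1.83, 1.40 and 2.37 at day 2 and 9.5, 8.16 and 7.76 at day 7, a day 7 log2 difference of 1.10 ± 0.11 (SE, adjusted p = 8.1e-08). Its libraries separated in the same order as those of Ddit3. Chac1, which breaks down glutathione, measured 4.92, 5.55 and 4.82 FPKM without doxycycline, 2.17, 3.07 and 3.34 at day 2 and 10.9, 10.5 and 12.4 at day 7, a log2 difference of 1.01 ± 0.15 (SE, adjusted p = 6.8e-06). Its libraries did not overlap between those groups either.

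Atf4 itself moved little. It measured 91.7, 85.9 and 90.1 FPKM without doxycycline, 77.7, 78.9 and 73.1 at day 2, 104, 108 and 96.7 at day 4 and 116, 99.5 and 92.7 at day 7. The log2 differences were -0.22, 0.20 and 0.19 at days 2, 4 and 7 (adjusted p = 0.03, 0.032 and 0.035), each lost when any 1 of several libraries was left out (4 libraries at day 2 and 4 at day 4). The day 7 call was lost on scaling to a common median (adjusted p = 0.11) and when any 1 of 3 single libraries was left out (untreated replicates 2 and 3 and day 7 replicate 1). Atf3 was not called at any day, at 1.98, 3.25 and 2.38 FPKM without doxycycline and 3.37, 3.06 and 3.03 at day 7 (log2 difference 0.25, adjusted p = 0.19). Ppp1r15a, the GADD34 subunit that dephosphorylates eIF2α and ends the response, was not called either, at 16.8, 18.6 and 18.2 FPKM without doxycycline and 15.8, 16.8 and 19.4 at day 7. Eif4ebp1, an inhibitor of cap-dependent translation, rose on each day, from 55.8, 61.6 and 55.6 FPKM to 92.6, 82.6 and 83.5 at day 7 (log2 difference 0.57 ± 0.07 (SE, adjusted p = 1.3e-06)).

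The 5 serine and one-carbon genes all fell by day 7. Phgdh rose at day 2 and then fell, measuring 92.1, 95.0 and 97.5 FPKM without doxycycline, 135, 135 and 149 at day 2, 72.9, 64.7 and 91.8 at day 4 and 53.6, 43.3 and 77.0 at day 7. Its log2 difference was 0.55 ± 0.16 (SE, adjusted p = 0.011) at day 2 and -0.74 ± 0.16 (SE, adjusted p = 0.00058) at day 7. Every day 2 library lay above the untreated ones and every day 7 library below them. Psat1, the next enzyme of that pathway, measured 76.1, 76.5 and 68.0 FPKM without doxycycline and 55.1, 44.4 and 45.6 at day 7 (log2 difference -0.60 ± 0.14 (SE, adjusted p = 0.00097)). Asns fell at days 2 and 4, by 0.51 and 0.31 on the log2 scale, and at day 7 was not called (33.4, 31.8 and 30.3 FPKM against 35.4, 37.4 and 34.7, adjusted p = 0.15).

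Of the 7 amino acid transporters 2 rose and 5 fell at day 7. Slc1a5, a carrier of glutamine and other neutral amino acids, measured 9.32, 14.2 and 11.2 FPKM without doxycycline and 4.76, 6.73 and 4.98 at day 7 (log2 difference -0.95 ± 0.16 (SE, adjusted p = 3.3e-05)). Slc7a5, the light chain of the leucine carrier LAT1, measured 30.8, 35.1 and 26.8 and 19.4, 18.9 and 17.3 FPKM (log2 difference -0.70 ± 0.11 (SE, adjusted p = 1e-05)). Slc1a4, another neutral amino acid carrier, was already at 2.99, 2.48 and 2.47 FPKM at day 2 against 8.27, 8.53 and 8.48 without doxycycline (log2 difference -1.37 ± 0.10 (SE, adjusted p = 6.2e-10)). The glycine carrier Slc6a9 and the cationic amino acid carrier Slc7a3 rose by day 7, with log2 differences of 0.76 and 0.64. The summed fibroblast markers moved with these changes, from 1005 to 1308 FPKM without doxycycline to 297 to 425 at day 7, and the summed macrophage markers, of which 4 of 6 reached a mean of 1 FPKM in MEFs, went from 22 to 40.9 to 95.2 to 239 FPKM. Their part in the member changes was not tested. In bulk samples, fewer cells of a type and less RNA per cell cannot be told apart.

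In caMKK6 MEFs Atf3 rose early and stayed high, Ddit3 and Atf5 rose later, and Phgdh, Psat1 and the carriers Slc7a5 and Slc1a5 fell. There were 3 members up and 16 down at day 2 (14.3% of all genes up and 24.8% down), 6 up and 12 down at day 4 (17.1% of all genes up and 27.7% down) and 5 up and 8 down at day 7 (16.8% of all genes up and 24% down). At day 7 the members were thus called about as often as genes in general, and those counts say little about them as a set. Scaling to a common median turned the day 7 split to 8 up and 6 down. Without the 5 libraries that list the other transgene, 8 members were called on each day (2 up and 6 down, 3 up and 5 down, and 4 up and 4 down), with 1 untreated library left. The summed fibroblast markers were 1261 to 1554 FPKM without doxycycline, 768 to 942 at day 2, 820 to 1164 at day 4 and 1278 to 1687 at day 7, and the summed macrophage markers 27.6 to 191, 82.6 to 349, 86.7 to 434 and 76.2 to 615. The part of these markers in the member changes was not tested.

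Atf3 measured 2.14, 1.61 and 2.91 FPKM without doxycycline, 9.62, 9.01 and 10.0 at day 2, 13.6, 15.3 and 11.6 at day 4 and 10.2, 10.4 and 7.29 at day 7. Its log2 differences were 1.73 ± 0.16 (SE, adjusted p = 4.5e-07) at day 2 and 1.68 ± 0.16 (SE, adjusted p = 2.3e-07) at day 7, and every library on doxycycline lay above every untreated one. Ppp1r15a rose at days 2 and 4 with log2 differences of 0.55 and 0.55, both lost without the libraries listing the other transgene (adjusted p = 0.084 and 0.093), and was not called at day 7 (adjusted p = 0.18). Ddit3 measured 21.6, 15.9 and 18.3 FPKM without doxycycline, 20.3, 22.1 and 20.4 at day 2 and 45.4, 38.8 and 35.6 at day 7 (log2 difference 1.07 ± 0.15 (SE, adjusted p = 1.5e-05)). Its day 2 libraries overlapped the untreated ones and its day 7 libraries did not. Trib3 fell at day 2 and rose by day 7, at 6.44, 5.36 and 6.26, then 3.94, 3.41 and 3.18, then 10.3, 9.12 and 11 FPKM (day 7 log2 difference 0.67 ± 0.11 (SE, adjusted p = 0.00013)), and without the libraries listing the other transgene the day 2 call was lost (adjusted p = 0.076). Atf4 was not called on any day, at 90.2, 86.1 and 99.0 FPKM without doxycycline and 81.4, 75.9 and 82.8 at day 7 (adjusted p = 0.051). Chac1 fell at days 2 and 4, the latter a call lost without untreated or day 4 replicate 1, and stood at 5.34, 7.19 and 7.58 FPKM at day 7 against 7.87, 6.14 and 6.54 without doxycycline (adjusted p = 0.88).

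Phgdh fell from 70.0, 67.8 and 80.9 FPKM to 45.0, 31.1 and 44.7 at day 7 (log2 difference -0.86 ± 0.16 (SE, adjusted p = 0.00034)) and Psat1 from 61.8, 72.4 and 86.4 to 37.9, 32.4 and 49.4 (log2 difference -0.87 ± 0.14 (SE, adjusted p = 6e-05)). Neither gene's libraries overlapped between the groups. Of the 5 serine and one-carbon genes 4 fell by day 7. Psph did not, at 7.53, 6.15 and 7.57 FPKM without doxycycline and 7.76, 5.87 and 7.62 at day 7. Slc1a5 fell from 10.4, 12.2 and 11.1 FPKM to 4.17, 3.45 and 4.66 (log2 difference -1.27 ± 0.16 (SE, adjusted p = 4.4e-06)) and Slc7a5 from 35.1, 42.7 and 38.2 to 18.5, 20.7 and 25.2 (log2 difference -0.83 ± 0.11 (SE, adjusted p = 5.9e-06)). Asns fell at day 2 from 36.3, 43.6 and 35.9 FPKM to 23.1, 29.8 and 22.6, by 0.60 on the log2 scale, and at day 7 measured 34.0, 38.2 and 37.7 (adjusted p = 0.6). The day 7 calls of Atf3, Atf5, Ddit3, Trib3, Phgdh, Psat1, Slc1a5 and Slc7a5 held in every alternative run, the one without the 5 libraries included.

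**Figure D2:**
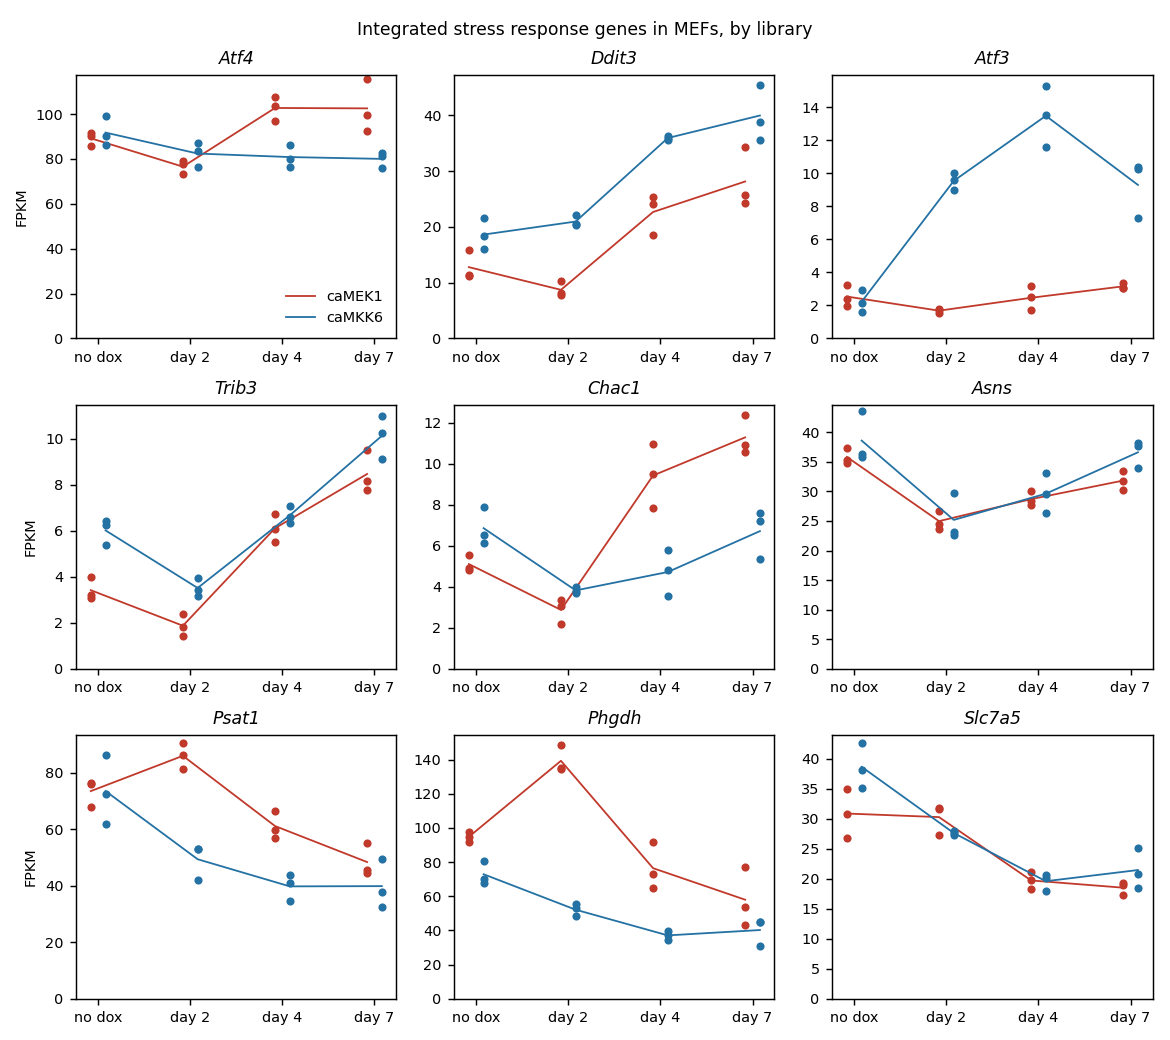
FPKM of 9 members in caMEK1 and caMKK6 MEFs, untreated (day 2) and after 2, 4 and 7 days of doxycycline, with a point per library (3 a group) and a line through the group means. Ddit3, Trib3 and Chac1 of caMEK1 cells dip at day 2 and end above the start, Atf3 is high in caMKK6 cells, and Phgdh, Psat1 and Slc7a5 end low with both kinases.

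The change with caMEK1 was then set against the change with caMKK6 in one contrast, (caMEK1 with minus without) minus (caMKK6 with minus without). At day 2, 5 members were higher and 6 lower with caMEK1 (14.7% of all genes up and 8.8% down), and with the replicate number as a block 7 were higher and 10 lower. Scaling to a common median gave 3 higher and 9 lower. At day 7, 9 were higher and 7 lower (23.3% of all genes up and 14.5% down), and scaling to a common median gave 3 higher and 8 lower, so the split between higher and lower depends on the scale. Without the 5 libraries that list the other transgene, 4 members were called at day 2, all lower with caMEK1, and 9 at day 7. Atf3 differed most on both days, by -2.11 ± 0.23 (SE, adjusted p = 1e-06) at day 2 and -1.43 ± 0.23 (SE, adjusted p = 6.1e-05) at day 7. Chac1 differed by 1.04 ± 0.21 (SE, adjusted p = 0.00056) at day 7, higher with caMEK1, and Slc1a4 by -1.03 ± 0.14 (SE, adjusted p = 6.1e-06), lower with caMEK1. For Phgdh and Psat1 the day 2 difference was 1.02 and 0.78, both lost without those 5 libraries (adjusted p = 0.066 and 0.057), and at day 7 neither was called (adjusted p = 0.72 and 0.29). For Ddit3 the day 7 changes did not differ past the threshold (difference 0.02, adjusted p = 0.96).

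Further lists, 4 in all, give the surroundings of the members in MEFs. Of 10 chaperones and partners of the endoplasmic reticulum unfolded protein response, 1 rose and 9 fell at day 7 with caMEK1, the one that rose being the co-chaperone Dnajb9 (log2 difference 1.08 ± 0.13 (SE, adjusted p = 5.5e-07)). The chaperones Hsp90b1 and Hspa5 fell by 0.94 and 0.80 on the log2 scale. Over all genes, 33.4% rose and 28.7% fell. With caMKK6 (16.8% and 24%) 1 of these 10 rose, again Dnajb9 (log2 difference 1.09), and none fell, and scaling to a common median raised that count to 4. Of 11 genes for the eIF2α kinases, eIF2α itself, the eIF2B exchange factor and a phosphatase subunit, 2 rose and 7 fell at day 7 with caMEK1, with Eif2ak3 (the kinase PERK) at a log2 difference of 1.11 and the eIF2B subunit gene Eif2b1 at -0.90. Of 14 genes that charge or export transfer RNA, which ATF4 also drives, 3 rose and 8 fell with caMEK1, and 3 rose and 2 fell with caMKK6. Of 11 other ATF4-linked genes 4 rose and 4 fell with caMEK1 and 3 rose and 3 fell with caMKK6. The cystine carrier Slc7a11 rose with both (log2 difference 1.67 and 1.05) and the stress cytokine Gdf15 fell with both (-1.88 and -0.98).

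In liver 23 of the 31 members passed the filter on low values, and the 8 that did not were Nupr1, Phgdh, Mthfd2, Pycr1, Slc7a3, Slc1a5, Stc2 and Vldlr. In caMEK1 mCherry cells, against mCherry cells of control mice on doxycycline, genes of serine and asparagine synthesis rose and Cth and Shmt2 fell. There were 6 members up and 2 down of 23, against 10.7% of all genes up and 16.3% down, and 4 members were called when either control library or caMEK1 replicate 2 was left out. The median log2 difference was 0.48 for the members and -0.04 for all genes tested. 

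Psat1 measured 24.6, 19.6 and 12.6 FPKM in the 3 caMEK1 mCherry libraries and 0.0948 and 0.0192 in the 2 control ones (log2 difference 4.19 ± 0.36 (SE, adjusted p = 2.2e-07)). GFP cells of the same caMEK1 mice measured 1.00, 2.30 and 1.09 FPKM, and caMKK6 mCherry cells 0.0187 and 2.63. The caMEK1 mCherry libraries thus lay above every other liver group. Psph, the last enzyme of serine synthesis, measured 8.67, 5.70 and 3.00 FPKM against 0.67 and 0.622 (log2 difference 1.95 ± 0.32 (SE, adjusted p = 0.00025)). Phgdh, the first enzyme, was not tested and was listed at 0.427, 0.341 and 0.404 FPKM in caMEK1 mCherry cells and at 0.0324 and 0 in control ones. Shmt2, which passes a carbon unit from serine to folate in mitochondria, fell from 44.7 and 35.6 FPKM to 12.0, 10.1 and 15.2 (log2 difference -1.62 ± 0.47 (SE, adjusted p = 0.016)), a call lost when either control library or caMEK1 replicate 2 was left out. Asns measured 33.2, 41.1 and 14.6 FPKM against 2.77 and 1.40 (log2 difference 3.23 ± 0.46 (SE, adjusted p = 7.4e-05)), with no overlap. Cth measured 17.2, 20.6 and 43.2 FPKM against 144 and 151 (log2 difference -2.52 ± 0.36 (SE, adjusted p = 6.5e-05)), again with no overlap.

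The regulators moved less. Trib3 measured 5.40, 9.84 and 7.96 FPKM against 1.21 and 1.88 (log2 difference 1.76 ± 0.59 (SE, adjusted p = 0.036)), and this call was lost by voom on the recovered reads (adjusted p = 0.1), with the animal as a block (0.093), without caMEK1 animal 17 (0.075) and without any 1 of 4 libraries. Cebpg, a dimer partner of ATF4, and Eif4ebp1 were called with log2 differences of 1.05 and 1.32, both lost when either control library or caMEK1 replicate 2 was left out. Against untreated GFP cells of caMEK1 mice their log2 differences were 0.34 and 0.63 and neither was called (adjusted p = 0.37 for Cebpg and 0.22 for Eif4ebp1). Atf4 measured 29.1, 34.0 and 23.7 FPKM against 20.9 and 19.0 and was not called (adjusted p = 0.21), nor were Ddit3 (1.86, 3.02 and 1.27 against 0.659 and 0.81, adjusted p = 0.17), Atf3 (adjusted p = 0.78), Chac1 (adjusted p = 0.15) and Ppp1r15a (adjusted p = 0.8). The calls of Psat1, Psph, Asns and Cth held in every alternative run. Beside these changes, the summed hepatocyte markers were 66819 to 100876 FPKM in caMEK1 mCherry cells and 39840 to 39846 in control ones, and the summed bile duct markers, 2 of 4 at a mean of 1 FPKM or more, were 27.7 to 112 and 8.83 to 12.9 FPKM. Their part in the member changes was not tested, nor was that of the low transgene level in these libraries.

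In caMKK6 mCherry cells of liver, 13 of the 23 members rose and none fell, against 28.9% of all genes up and 9.29% down. The median log2 difference was 1.19 for the members and 0.25 for all genes tested. All genes as a whole were thus shifted up in this comparison, and with libraries scaled to a common median, which removes that shift, 11 members rose and none fell. Leaving out 1 library gave 9 to 15 calls. The 13 were 5 of 6 regulators tested, both genes of feedback on translation, both mTORC1 brakes, 2 of 4 other amino acid synthesis genes and 2 of 5 carriers, and none of the 3 serine and one-carbon genes.

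Atf4 measured 59.5 and 61.8 FPKM in the 2 caMKK6 mCherry libraries and 20.9 and 19.0 in the 2 control ones (log2 difference 1.56 ± 0.31 (SE, adjusted p = 0.0014)). Atf3 measured 14.9 and 27.7 FPKM against 0.936 and 1.86 (log2 difference 3.18 ± 0.80 (SE, adjusted p = 0.0061)) and Trib3 11 and 52.2 against 1.21 and 1.88 (log2 difference 3.32 ± 0.65 (SE, adjusted p = 0.0013)). Both caMKK6 libraries lay above both control libraries for each of the 3, and for Atf4 above the mCherry cells of caMEK1 mice as well. Ddit3 was called at a log2 difference of 1.38 ± 0.44 (SE, adjusted p = 0.022), but its libraries differed widely (1.21 and 8.15 FPKM against 0.659 and 0.81) and the call was lost by voom (adjusted p = 0.084) under both other scalings (0.053 and 0.058) and without either control library or caMKK6 animal 12. Asns measured 41.5 and 63.5 FPKM against 2.77 and 1.40 (log2 difference 4.12 ± 0.51 (SE, adjusted p = 2.5e-05)). Ppp1r15a measured 20.7 and 18 against 5.54 and 4.59 (log2 difference 1.74 ± 0.42 (SE, adjusted p = 0.0045)).

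Sesn2, a leucine sensor that holds mTORC1 back, measured 34.3 and 13.3 FPKM against 1.18 and 2.37 (log2 difference 3.05 ± 0.69 (SE, adjusted p = 0.0034)). Ddit4, another mTORC1 brake, measured 161 and 72.9 against 12.8 and 20.3 (log2 difference 2.68 ± 0.92 (SE, adjusted p = 0.031)), a call lost without caMKK6 animal 5 (adjusted p = 0.15). The Ddit4 call was also lost without either control library (adjusted p = 0.14 and 0.083) and on a common median (0.074). The libraries of neither gene overlapped between the groups. Psat1 measured 0.0187 and 2.63 FPKM and was not called (adjusted p = 0.088). Chac1 measured 8.26 and 6.40 against 5.22 and 2.04 and was not called (adjusted p = 0.19). The calls of Atf4, Atf3, Trib3, Asns, Sesn2, Eif4ebp1, Ppp1r15a and the cationic amino acid carrier Slc7a1 held in every alternative run. The summed hepatocyte markers were 26908 to 31315 FPKM in these cells against 39840 to 39846 in control ones, and their part in the member changes was not tested.

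Set against each other on doxycycline, caMEK1 mCherry cells had 2 members higher and 9 lower than caMKK6 mCherry cells, against 4.52% of all genes up and 27.2% down, with a median log2 difference of -0.99 for the members and -0.31 for all genes tested. Scaling to a common median gave 3 higher and 6 lower. Psat1 and Psph were higher with caMEK1, by 3.33 ± 0.36 (SE, adjusted p = 4.3e-06) and 1.64 ± 0.32 (SE, adjusted p = 0.0011) on the log2 scale. Atf3 and Cth were lower, by -2.84 ± 0.73 (SE, adjusted p = 0.0076) and -2.41 ± 0.36 (SE, adjusted p = 0.00012), the first a call lost without caMKK6 animal 12. Atf4 was lower by -1.06 ± 0.28 (SE, adjusted p = 0.0093), a call lost on scaling to a common median (adjusted p = 0.15) and by quantile normalization (0.11). Asns was not called (difference -0.89, adjusted p = 0.15). These cells got doxycycline at different doses, so the differences belong to kinase and dose together.

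GFP cells, compared between mice on doxycycline and untreated mice of their genotype, also changed in part. In caMEK1 mice 5 members rose and 2 fell (6.46% of all genes up and 32% down), and in caMKK6 mice 6 rose and 1 fell (5.21% of all genes up and 13.8% down). In control mice limma called 0 members (0.0868% of all genes called), with 3 at an unadjusted p under 0.05 and 0 by voom. Ddit4 rose in caMEK1 GFP cells to 27.9, 71.5 and 19.2 FPKM from 1.91, 6.44 and 8.42 (log2 difference 2.56 ± 0.75 (SE, adjusted p = 0.013)). That call was lost without untreated replicate 1 (adjusted p = 0.069) or GFP replicate 2 on doxycycline (0.072), and against control GFP cells on doxycycline the log2 difference was 0.43 (adjusted p = 0.72). Asns rose to 11.4, 12.4 and 3.34 from 1.86, 1.03 and 0.75 (log2 difference 2.05 ± 0.41 (SE, adjusted p = 0.0012)). Cth fell to 36.5, 48.2 and 67.7 FPKM from 161, 205 and 147 (log2 difference -1.76 ± 0.32 (SE, adjusted p = 0.00051)). The groups did not overlap for any of the 3. Macrophage markers in these caMEK1 GFP libraries summed to 29.0 to 393 FPKM, against 23 to 43.5 without doxycycline. Neutrophil markers summed to 7.14 to 42.5 FPKM against 0 to 0.12, and hepatocyte markers to 69572 to 79978 against 42739 to 51337, both without overlap. The part of these markers in the member changes was not tested. In caMKK6 GFP cells Ddit4 measured 217 and 53.7 FPKM against 2.83, 10.7 and 3.20, and Asns 8.08 and 6.69 against 1.30, 1.21 and 1.52, with the first animal listed being animal 5. Without animal 5 none of the 7 calls was made and no member was called, without the GFP library of animal 12 there were 13 calls, and against control GFP cells on doxycycline 1 member was called. One of these GFP libraries listed human MKK6 at 30.9 FPKM and the other at 1.51.

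Within the same caMEK1 mice, mCherry against GFP cells gave 3 members up and none down (3.75% of all genes up and 0.955% down), namely Psat1 (log2 difference 3.01 ± 0.32 (SE, adjusted p = 1.3e-05)), Asns (1.65 ± 0.41 (SE, adjusted p = 0.027)) and Psph (1.19 ± 0.28 (SE, adjusted p = 0.021)). With the animal as a block 4 rose and 3 fell, and 1 member was called without mCherry replicate 1, mCherry replicate 2 or GFP replicate 3. Psat1 held in every alternative run, while Asns and Psph were lost on scaling to a common median (adjusted p = 0.053 and 0.054). In caMKK6 mice 1 member rose, Asns (log2 difference 2.65 ± 0.51 (SE, adjusted p = 0.0067), with 3.99% of all genes up and 0.289% down), and 6 rose with the animal as a block. Sesn2 of animal 5 was high in both colours, 34.3 FPKM in mCherry and 55.4 in GFP cells, and without it 6 members were called, while without the mCherry library of animal 12 none was. In control mice limma called 0 members between the colours (0.106% of all genes called), with 0 at an unadjusted p under 0.05 and 0 by voom.

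**Figure D3:**
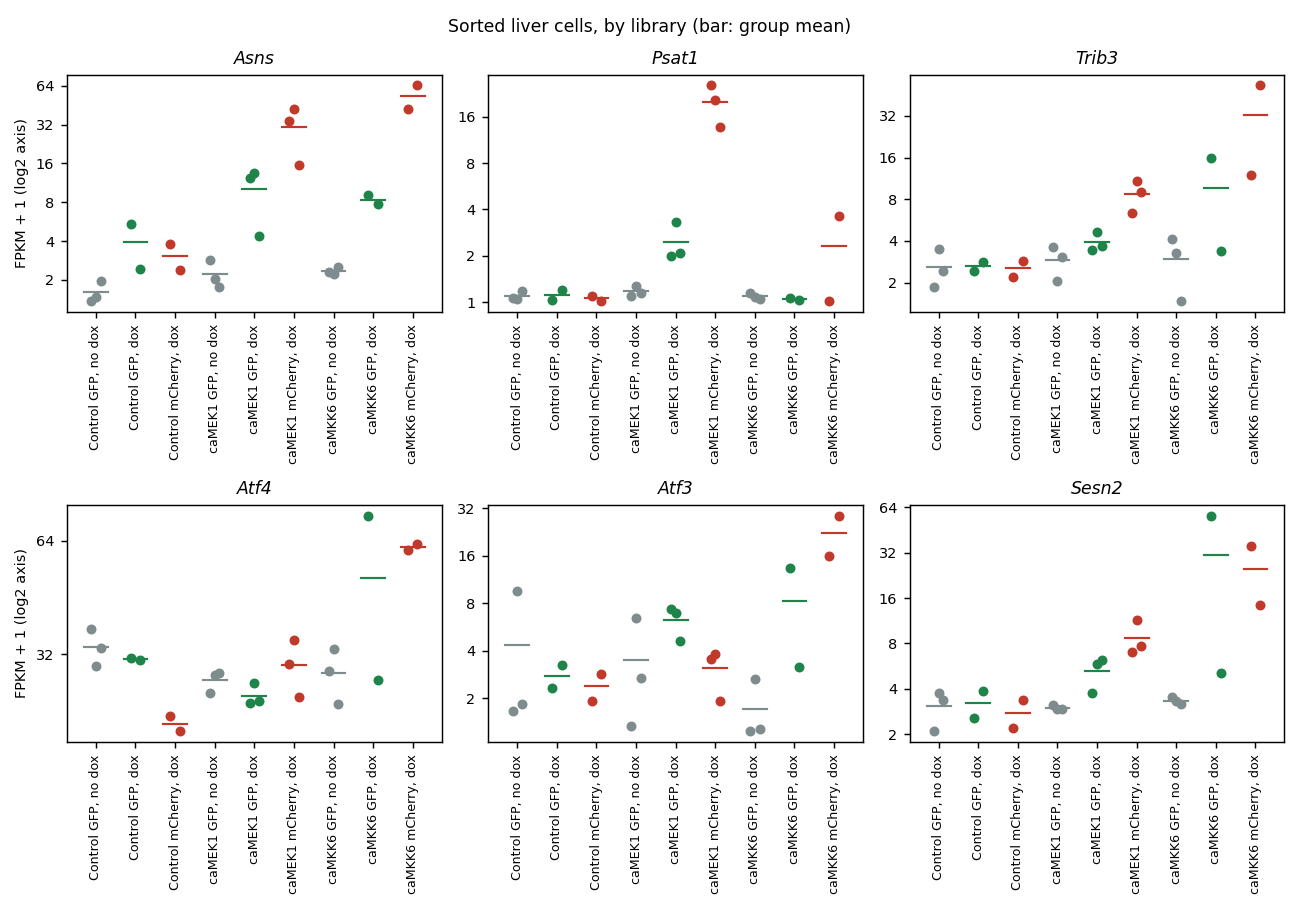
FPKM of Asns, Psat1, Trib3, Atf4, Atf3 and Sesn2 in the 9 liver groups, on a log scale, with a point per library and a bar at the group mean. Psat1 stands out in caMEK1 mCherry cells, Asns in the mCherry cells of both kinases, and Atf4, Atf3 and Sesn2 in caMKK6 cells, with the GFP library of caMKK6 animal 5 above both mCherry libraries for Atf4 and Sesn2 and below both for Atf3.

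Of 10 chaperones of the endoplasmic reticulum tested in liver, none rose and 7 fell in caMEK1 mCherry cells, where 16.3% of all genes fell, and none rose and 8 fell in caMKK6 mCherry cells, where 9.29% fell, against the same control libraries. By quantile normalization these counts became 1 up and none down, and none up and 4 down, so the fall with caMEK1 depends on the scale. Creld2 measured 62.9 and 73.3 FPKM in control mCherry cells, 32.0, 20.4 and 9.31 in caMEK1 and 9.26 and 17.7 in caMKK6 ones (log2 difference -1.83 ± 0.59 (SE, adjusted p = 0.029) and -2.31 ± 0.65 (SE, adjusted p = 0.011)). Both calls were lost against untreated GFP cells of the genotype (log2 difference -0.28 and -0.54, adjusted p = 0.72 and 0.51), the first also without caMEK1 animal 17 or either control library and the second without caMKK6 animal 5 or control replicate 2. Untreated GFP cells of caMEK1 and caMKK6 mice listed Creld2 at 17.6, 13.8 and 46.5 and at 9.05, 26.4 and 28.6 FPKM, all below both control mCherry libraries. With caMKK6, 28.9% of all genes rose and 9.29% fell. Of 14 transfer RNA charging and export genes 4 rose and none fell with caMKK6, about that share, led by Gars (log2 difference 2.06). On a common median 2 rose and 1 fell. Of the 11 eIF2α kinase and eIF2B genes 5 rose and 1 fell with caMKK6, and 1 rose and 2 fell on a common median. Of 11 other ATF4-linked genes 4 rose with caMKK6 and none fell, with the kinase gene Mknk2 at a log2 difference of 3.62 and the mitochondrial one-carbon gene Mthfd1l at 2.10.

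In colon 29 of the 31 members passed the filter, all but Trib3 and Slc7a3. In caMEK1 mCherry cells, against control mCherry cells, 5 members rose and 4 fell, against 9.54% of all genes up and 12% down. Leaving out caMEK1 replicate 1 or 2 gave 5 or 3 calls. The median log2 difference was 0.19 for the members and -0.14 for all genes tested, and scaling to a common median gave 7 up and 3 down. Eif4ebp1 and Ddit4 rose, and of the 5 other amino acid synthesis genes 3 fell and none rose.

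Eif4ebp1 (ENSMUSG00000031490.6, chromosome 8, 27260329 to 27276674 on GRCm38) measured 41.2 and 48.2 FPKM in the 2 caMEK1 mCherry libraries and 5.60 and 5.94 in the 2 control ones (log2 difference 2.75 ± 0.28 (SE, adjusted p = 2.1e-06)). GFP cells of the same mice measured 11.3 and 13.5 FPKM and caMKK6 mCherry cells 16.2, 9.68 and 13.5. The caMEK1 mCherry libraries lay above all other colon libraries. Ddit4 measured 92.5 and 127 FPKM against 38.4 and 27.7 (log2 difference 1.70 ± 0.32 (SE, adjusted p = 0.0011)). Gpt2 measured 2.72 and 0.945 FPKM against 11.3 and 7.06 (log2 difference -1.89 ± 0.31 (SE, adjusted p = 0.00028)), with no overlap. Pycr1, which makes proline and holds the motif printed above, measured 0.372 and 0.221 against 1.2 and 2.45 (log2 difference -1.09 ± 0.38 (SE, adjusted p = 0.049)), a call lost by voom (adjusted p = 0.1) and under both other scalings (0.058 and 0.091). Cth fell by 1.05 and Slc1a5 by 0.80 on the log2 scale. Without caMEK1 replicate 2 both calls were lost (adjusted p = 0.053 and 0.17), and without control replicate 2 that of Slc1a5 was (0.12).

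The regulators were not called in caMEK1 colon cells, and Trib3, listed at 0.86 and 0.408 FPKM with caMEK1, 0.794, 0.218 and 1.00 with caMKK6 and 0.0383 and 0.0726 in control mCherry cells, was under the filter. Atf4 measured 104 and 116 FPKM against 124 and 55.0 (adjusted p = 0.43), Ddit3 10.5 and 15.2 against 9.18 and 5.00 (adjusted p = 0.12) and Atf3 251 and 241 against 807 and 67.3 (adjusted p = 0.97). The control values of these 3 genes were far apart, with animal 8 high and animal 13 low. Asns (adjusted p = 0.78), Chac1 (adjusted p = 0.95) and Ppp1r15a (adjusted p = 0.095) were not called either. Psat1 was called, at 7.19 and 7.98 FPKM against 1.15 and 4.23 (log2 difference 1.36 ± 0.47 (SE, adjusted p = 0.045)), as were the secreted glycoprotein gene Stc2 and Slc3a2, the heavy chain that carries Slc7a5. All 3 were lost without control animal 8, where the log2 differences of Psat1 and Stc2 were 0.71 and 0.65. Psat1 and Stc2 were also lost without either caMEK1 library. The Psat1 call was lost by voom (adjusted p = 0.056), with a pseudocount of 0.1 (0.053) and without the filter (0.078) too. That of Stc2 was lost against untreated GFP cells of caMEK1 mice (log2 difference 0.53, adjusted p = 0.21). The calls of Eif4ebp1, Ddit4 and Gpt2 held in every alternative run. Of the 4 neutrophil markers 1, Ly6g, averaged 1 FPKM or more in these cells, and their sum was 590.2 to 1012 FPKM against 1.80 to 7.95 in control mCherry cells, while the summed macrophage markers stayed at 1.03 to 1.43. The part of these transcripts in the member changes was not tested.

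In caMKK6 mCherry cells of colon 11 members rose and 3 fell, against 11.1% of all genes up and 9.7% down, with a median log2 difference of 0.60 for the members and -0.06 for all genes tested. Without the libraries of control animal 8, 3 members rose and 4 fell, and without caMKK6 replicate 3 there were 9 calls. The summed neutrophil markers, 1 of 4 at a mean of 1 FPKM or more, were 28.0 to 46.7 FPKM in these cells against 1.80 to 7.95 in control ones, and their part was not tested. The rises covered 3 of 5 serine and one-carbon genes and 3 of 6 carriers. Phgdh measured 14.2, 4.63 and 9.24 FPKM against 0.754 and 4.56 (log2 difference 1.61 ± 0.43 (SE, adjusted p = 0.013)), with animal 8 the lower control. Slc7a5 measured 14.8, 9.74 and 14.8 against 3.10 and 8.53 (log2 difference 1.15 ± 0.34 (SE, adjusted p = 0.022)), and Shmt2 30.2, 16.9 and 33.0 against 7.44 and 16.2 (log2 difference 1.15 ± 0.31 (SE, adjusted p = 0.013)). The groups of these 3 genes did not overlap, but without animal 8 the adjusted p was 0.23, 0.26 and 0.11. Psat1 was called although its libraries overlapped (10.5, 4.12 and 10.2 FPKM against 1.15 and 4.23), and was lost without animal 8 (adjusted p = 0.24).

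The members whose calls held in every alternative run were Slc3a2, Gpt2 and Cth. Slc3a2 measured 35.3, 20.7 and 26.9 FPKM against 12.7 and 13.4 (log2 difference 0.99 ± 0.17 (SE, adjusted p = 0.00073)). Gpt2 measured 3.68, 1.79 and 1.85 against 11.3 and 7.06 (log2 difference -1.57 ± 0.28 (SE, adjusted p = 0.00083)), and Cth 14.6, 10.7 and 12.0 against 28.0 and 31.2 (log2 difference -1.2 ± 0.19 (SE, adjusted p = 0.00039)). Each had no overlap between the groups, Slc3a2 with all 3 caMKK6 libraries higher and the other 2 genes with all 3 lower. Atf4 measured 86.3, 81.8 and 76.8 FPKM and was not called (adjusted p = 0.98), nor were Atf3 (adjusted p = 0.43), Ddit3 (adjusted p = 0.61), Ppp1r15a (adjusted p = 0.5) and Asns (40.9, 22.6 and 34.9 FPKM against 12.7 and 19.8, adjusted p = 0.085). Of the 6 regulators tested 1 rose, Atf5 (12.8, 15.5 and 18.7 FPKM against 5.80 and 9.60), and 1 fell. Chac1 was called at a log2 difference of 0.79 ± 0.26 (SE, adjusted p = 0.036), a call lost without animal 8 (adjusted p = 0.43) and by voom (0.055).

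Between the kinases, caMEK1 mCherry cells of colon had 5 members higher and 6 lower than caMKK6 ones (8.56% of all genes up and 12.1% down). Eif4ebp1 was higher by 1.72 ± 0.26 (SE, adjusted p = 0.00013), Ppp1r15a by 1.28 ± 0.35 (SE, adjusted p = 0.015) and Ddit3 by 1.07 ± 0.33 (SE, adjusted p = 0.028). The Ppp1r15a call was lost without either caMEK1 library (adjusted p = 0.072 and 0.099), and that of Ddit3 without caMEK1 replicate 2 (0.26) or caMKK6 replicate 2 (0.057) or 3 (0.12). Nupr1, at 26.0 and 14.5 FPKM with caMEK1 and 70.7, 73.7 and 62.5 with caMKK6, was lower by -1.77 ± 0.45 (SE, adjusted p = 0.0096), a call lost without caMEK1 replicate 2. The count of 11 was 6 without caMEK1 replicate 1 and 2 without caMEK1 replicate 2. Of 14 transfer RNA charging and export genes none was higher and 11 were lower with caMEK1, and 9 were lower on a common median. Against control cells 7 of these 14 rose and none fell with caMKK6 (11.1% of all genes up and 9.7% down), Wars among them (log2 difference 1.08). With caMEK1 none rose and 1 fell (9.54% of all genes up and 12% down), which turned to 1 up and none down on a common median. Slc7a11 rose in both, with log2 differences of 1.59 in caMEK1 and 2.45 in caMKK6 mCherry cells, against the same control libraries.

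Few members were called in GFP cells of colon. In caMEK1 mice 1 member, Atf5, rose (0.91% of all genes up and 0.425% down), at 12.6 and 9.43 FPKM against 4.22, 5.34 and 4.70 (log2 difference 1.06 ± 0.22 (SE, adjusted p = 0.018)), a call lost without untreated replicate 1 or 3 or either library on doxycycline. In caMKK6 mice limma called 0 (2.6% of all genes called), with 8 at an unadjusted p under 0.05 and 0 by voom, and in control mice 0 (0% of all genes called), with 6 at an unadjusted p under 0.05 and 0 by voom. Leaving out 1 control GFP library on doxycycline, replicate 2, gave 6 calls, all down. Between the colours of the same caMEK1 mice 3 members rose and 3 fell (5.71% of all genes up and 7.72% down), and 7 rose and 5 fell with the animal as a block, while without mCherry replicate 2 there were 3 calls. Gpt2 was lower in mCherry cells by -2.15 ± 0.31 (SE, adjusted p = 0.00017), Slc1a5 by -1.35 ± 0.23 (SE, adjusted p = 0.00078), and Eif4ebp1 higher by 1.77 ± 0.28 (SE, adjusted p = 0.00042), and these 3 held in every alternative run. In caMKK6 mice 4 rose and 3 fell (8.24% of all genes up and 13.1% down), and 8 rose and 5 fell with the block, while without mCherry replicate 3 there were 4 calls. Gpt2 was lower there by -1.28 ± 0.25 (SE, adjusted p = 0.0017) and Cth by -1.39 ± 0.17 (SE, adjusted p = 4e-05), both in every alternative run. In control mice 0 were called between the colours (0.0866% of all genes called), with 1 at an unadjusted p under 0.05 and 0 by voom, and Gpt2 measured 11.3 and 7.06 FPKM in mCherry and 7.68 and 7.5 in GFP cells.

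**Figure D4:**
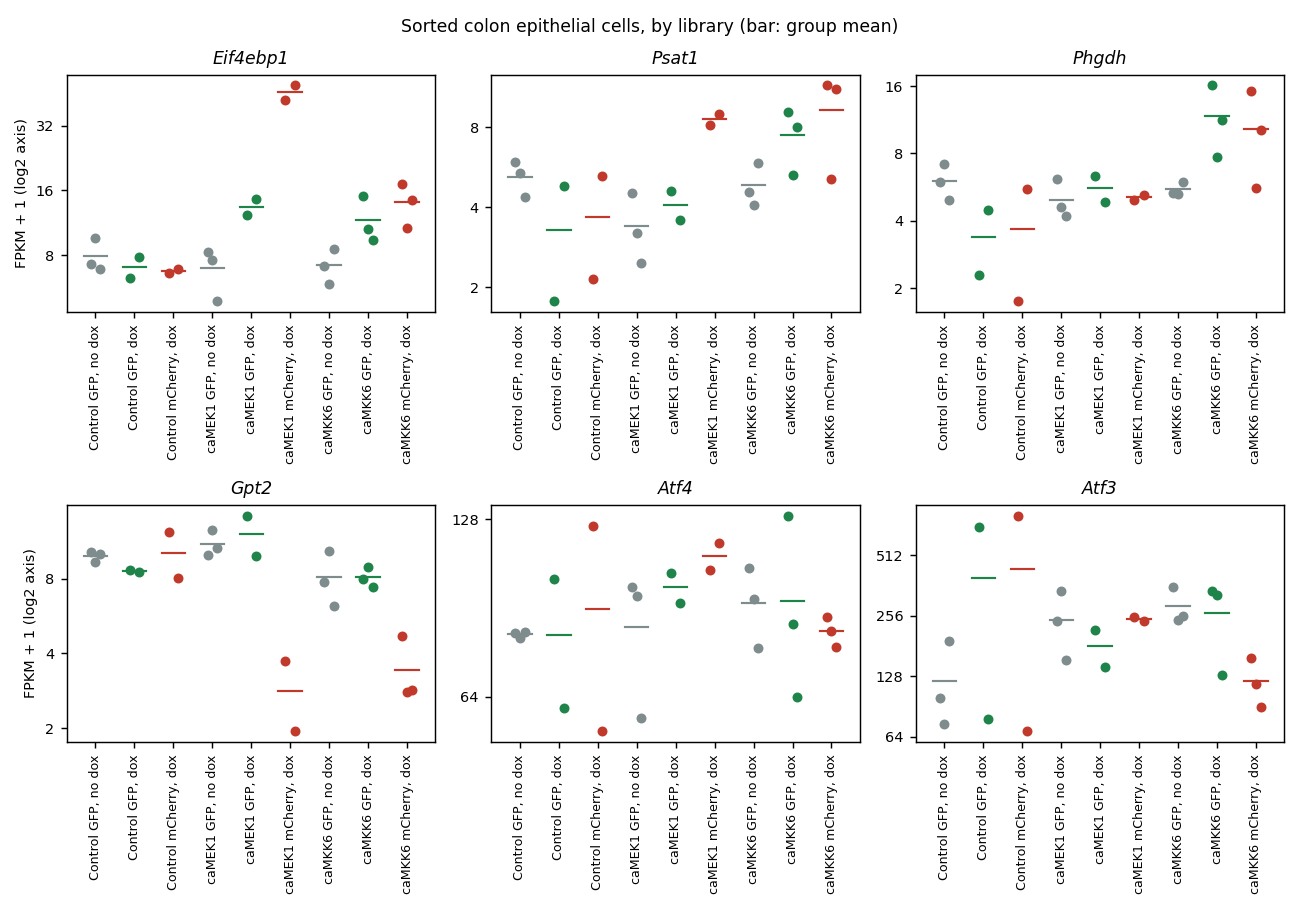
FPKM of Eif4ebp1, Psat1, Phgdh, Gpt2, Atf4 and Atf3 in the 9 colon groups, on a log scale, with a point per library and a bar at the group mean. Eif4ebp1 is high in caMEK1 mCherry cells, Gpt2 is low in the mCherry cells of both kinases, and the control animals on doxycycline are far apart in Atf3 and Phgdh.

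The same kinase did not call the same members in the 3 settings. How many of all genes were called in more than 1 setting was not counted. The overlaps below therefore have no background and say little about the members as a set. Of members that rose with caMEK1, MEFs at day 7 and liver mCherry cells shared Cebpg, Eif4ebp1 and Trib3 (3 of 10 and 3 of 6). Liver and colon mCherry cells shared Eif4ebp1 and Psat1 (2 of 6 and 2 of 5). The colon call of Psat1 was lost by voom and without control animal 8 or either caMEK1 library. The liver calls of Cebpg, Eif4ebp1 and Trib3 were all lost without either control library or caMEK1 replicate 2. Eif4ebp1 was called up and Cth down in all 3. The Cth call was lost in colon without caMEK1 replicate 2 (adjusted p = 0.053) and in MEFs without day 7 replicate 2 (0.051) or 3 (0.067). Psat1 fell in caMEK1 MEFs and rose in caMEK1 liver, at log2 differences of -0.60 and 4.19. Of members that rose with caMKK6, MEFs and liver shared Atf3, Ddit3 and Trib3 (3 of 5 and 3 of 13). MEFs and colon shared Atf5 and Slc6a9 (2 of 5 and 2 of 11), whose colon calls did not hold in every alternative run. Cth fell in both (1 of 8 and 1 of 3). Liver and colon shared rises of Ddit4, Eif4ebp1 and Slc3a2 (3 of 13 and 3 of 11). Of these, Ddit4 was lost in colon without control replicate 2 (adjusted p = 0.16) or caMKK6 replicate 2 (0.074) and against untreated GFP cells (0.13), and in liver without either control library. Eif4ebp1 was lost in colon without control animal 8 (0.053), and Slc3a2 in liver without caMKK6 animal 12 (0.064). Ddit3 was lost in liver without that animal or either control library. None rose in all 3. Atf3 itself was at 10.2, 10.4 and 7.29 FPKM in MEFs at day 7, 14.9 and 27.7 in liver mCherry cells and 156, 116 and 89.1 in colon mCherry cells of caMKK6 mice, where the control cells were already at 807 and 67.3. MEFs were compared with untreated cells and mCherry cells with control mice, so sizes are not set against each other across the 3.

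**Figure D5:**
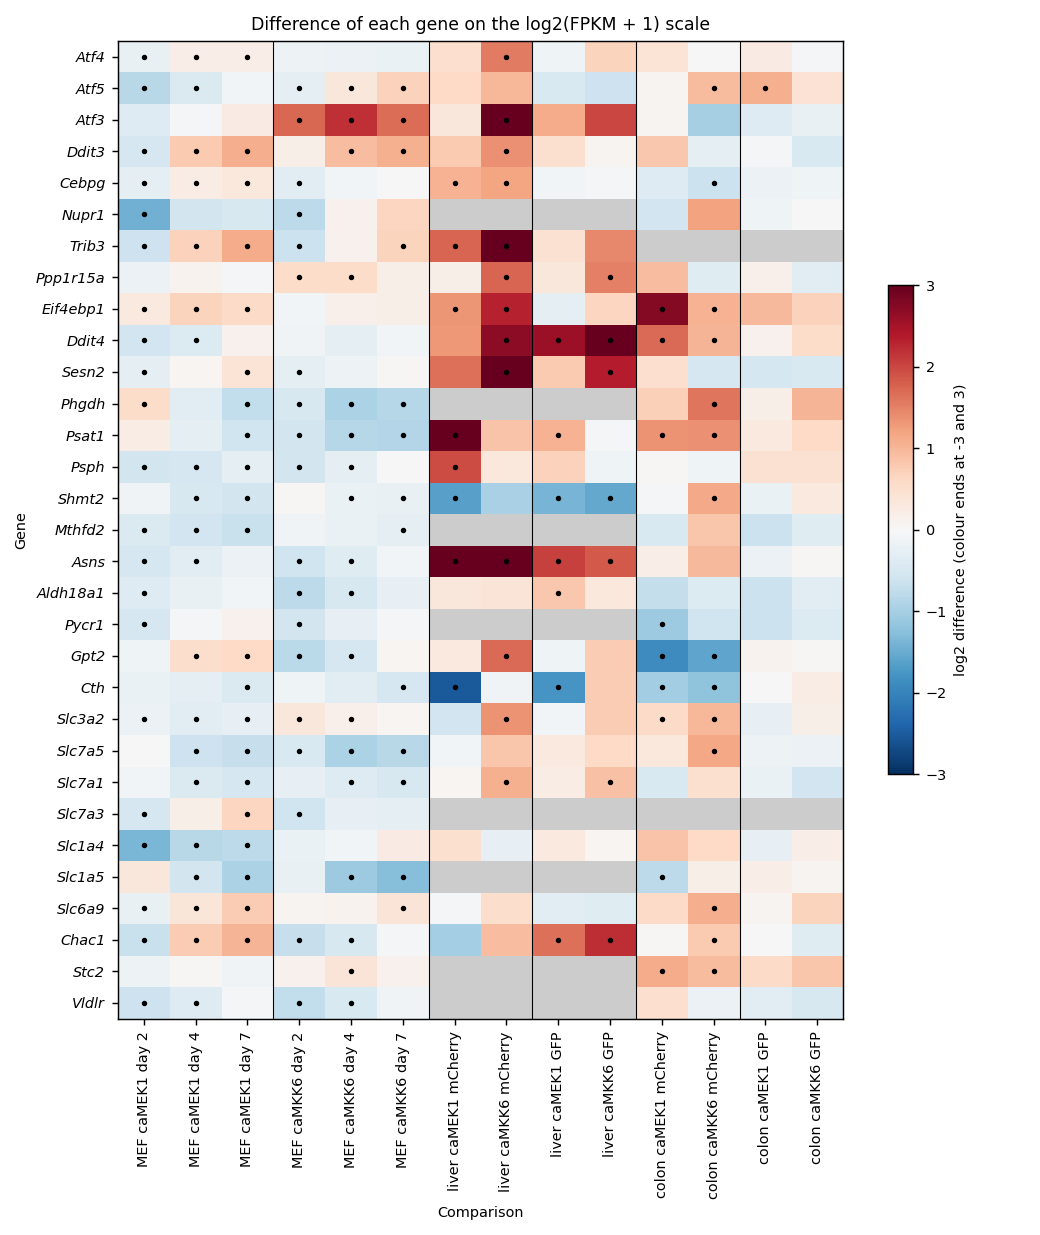
Log2 difference of each member in 14 comparisons, on the log2(FPKM + 1) scale, with colour from -3 (blue) to 3 (red), a dot where limma called the member at an adjusted p below 0.05 and grey where it was not tested. The Atf3 row is red in caMKK6 MEFs and liver. The Psat1 row is red in caMEK1 liver and blue in caMKK6 MEFs and in caMEK1 MEFs at days 4 and 7. The Eif4ebp1 row is red in caMEK1 MEFs and in caMEK1 mCherry cells of liver and colon.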

How the data were processed

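Messenger RNA of 70 libraries was measured, and the authors deposited 1 table of FPKM values (fragments per kilobase, scaled for library size). Per the submitters' processing notes, reads were trimmed with cutadapt 1.12 and aligned to mm10 with STAR 2, while the counting tool and its annotation are not given in the sources used here. The table has 21863 entries, of which 4 are transgenes. For 21191 genes with an exon length in GENCODE mouse release 21, the values came back to whole numbers of reads (100% of those below 1000 reads, with a tolerance of 0.02 read), which gave the depth and, for voom, the reads per gene.

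Per tissue, 1 linear model was fitted to log2(FPKM + 1) over all groups, in R 4.3.3 with limma 3.58.1 and eBayes set to model a mean-variance trend. Genes entered if at least 3 MEF or 2 tissue libraries reached 1 FPKM. That left 11347 genes in MEFs, 10371 in liver, 11542 in colon and 11968 for untreated liver against colon. A gene was called at a two-sided Benjamini-Hochberg adjusted p below 0.05 over all genes of a comparison, and no p was adjusted across the 27 comparisons. Rose, fell and changed refer to called genes. A log2 difference on this scale understates the change of genes near or under 1 FPKM. The labels do not say that MEF replicates were separate cultures, so p-values measure the spread between these samples. Python 3.11.15 with pandas 2.3.3, numpy 2.4.6 and matplotlib 3.10.9 made the tables and figures, and the fits were tested on simulated data.

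Values per library were given, in each comparison, for at most 8 called members with the largest log2 difference whose groups did not overlap and whose higher group averaged 1 FPKM or more, and for Atf4, Ddit3, Atf3, Asns, Trib3, Chac1, Psat1 and Ppp1r15a in every setting. Further members were named after their values were seen. Of other lists up to 3 called genes were named. The members and lists were chosen with earlier results of these data known.

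MEF samples with the same replicate number deviated together from their group means, with r above 0.1 in 18 of 18 pairs for each genotype (lowest 0.259 for caMEK1 and 0.108 for caMKK6), so the numbers were taken to pair the samples. In the tissues the labels tie both colours to an animal. Alternatives were quantile normalization, a common median for the libraries, a pseudocount of 0.1, all genes without a filter, the replicate number (MEFs) or the animal (tissues) as a block, another comparator (for mCherry cells, untreated GFP cells of the genotype, and for GFP cells, the treated GFP cells of control mice), leaving out each library, and leaving out the 5 caMKK6 MEF libraries that list frog MEK1, or both libraries of caMEK1 liver animal 17. Voom on the recovered reads, and leaving out control colon animal 8 or caMKK6 liver animal 5, were chosen after the data were seen.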

Additional observations from a re-analysis of the deposited data

Results flagged for a closer look

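Members whose change on doxycycline differed between caMEK1 and caMKK6 MEFs, by limma's test of the difference itself, are listed here as the caMEK1 change minus the caMKK6 change on the log2 scale. At day 2 the regulators Atf3 (-2.11), Ddit3 (-0.67) and Atf5 (-0.56) and the phosphatase subunit gene Ppp1r15a (-0.72) were lower with caMEK1. The translation inhibitor gene Eif4ebp1 (0.37) was higher. Phgdh (1.02) and Psat1 (0.78), both of serine synthesis, and Gpt2 (0.67), of alanine synthesis, were higher with caMEK1. Among carriers, Slc1a4 (-1.16) and Slc3a2 (-0.51) were lower and Slc7a5 (0.44) was higher. Of these, Atf3, Atf5, Slc1a4 and Slc3a2 were called in every alternative run.

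At day 7 Atf3 (-1.43), Nupr1 (-1.11) and Atf5 (-0.76) were lower with caMEK1, and Trib3 (0.44), Atf4 (0.39) and Cebpg (0.34) were higher. Eif4ebp1 (0.40) and the mTORC1 brake Sesn2 (0.38) were higher. Of the one-carbon genes Mthfd2 (-0.40) and Shmt2 (-0.33) were lower, while Gpt2 (0.54) was higher. Of the carriers Slc7a3 (0.95) and Slc6a9 (0.37) were higher and Slc1a4 (-1.03) and Slc3a2 (-0.30) were lower. Chac1 (1.04), which breaks down glutathione, was higher. Of the day 7 members, Atf3, Atf5, Chac1, Shmt2, Slc1a4 and Slc7a3 were called in every alternative run. Atf4, Cebpg, Gpt2, Mthfd2, Nupr1, Sesn2 and Trib3 were not called without the 5 libraries that list the other transgene. The calls of Trib3 and Gpt2 were also lost without the filter (adjusted p = 0.058 and 0.068) and on a common median (0.13 and 0.086). Quantile normalization (0.085 and 0.097) and leaving out any 1 of several libraries lost both as well. On a common median 3 members were higher and 8 lower at day 7.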

How the results depend on the processing

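Of 150 named member results, no direction reversed in 2072 alternatives, and 218 of these lost the call. The named results were picked for large called differences and, outside the kinase contrasts, for groups that did not overlap. Where groups do not overlap, leaving out 1 library cannot reverse the direction, so the lack of reversals says little. Without the 5 MEF libraries listing the other transgene, caMKK6 had 8 members called on each day (1477, 2376 and 2668 genes in all) and the kinase difference 4 at day 2 and 9 at day 7. With the replicate block the kinase difference at day 2 had 17, mCherry against GFP cells had 7 in caMEK1 liver, 6 in caMKK6 liver, 12 in caMEK1 colon and 13 in caMKK6 colon. The block changed no other count of members by over 1.5 times. Against the other comparator, GFP cells had 4 (caMEK1) and 1 (caMKK6) members called in liver and 0 and 2 in colon. Liver caMEK1 mCherry against GFP cells had 1 with a pseudocount of 0.1 or on a common median, and caMKK6 2 without the filter. In colon GFP cells, quantile normalization gave 2 with caMEK1 and 1 with caMKK6, and the common median 1 with caMKK6. Without caMKK6 animal 5, liver GFP cells had 0 and mCherry against GFP 6. Without control animal 8, caMKK6 colon mCherry cells had 7.

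Leaving out 1 library gave 4 to 8 members in liver caMEK1 mCherry cells, 0 to 13 in caMKK6 GFP cells, 1 to 4 for caMEK1 mCherry against GFP and 0 to 7 for caMKK6. In colon it gave 3 to 10 in caMEK1 and 6 to 15 in caMKK6 mCherry cells, 2 to 11 between the kinases, 0 to 1 in GFP cells of either kinase, 0 to 6 in control GFP cells, 3 to 6 for caMEK1 mCherry against GFP and 4 to 7 for caMKK6. Where a group was left with 1 library, it was assumed to vary like the others. The low counts of libraries, 2 in each control mCherry group, limit the precision, and the causes of these shifts were not tested.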
